A study of Mus musculus with 9 samples.

Results

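The levels of 9 markers of parietal epithelial cells and of their activation, out of 23309 symbols in the deposited table, were followed in podocyte RNA of mice given ADR or PBS. They were taken by symbol from a list made for this purpose and comprised Cd44, Pax2, Pax8, Cldn1, Aldh1a1, Aldh1a2, Cd24a, Cd9 and Spp1. All 9 were found, each on 1 row, and 7 passed the filter for testing (1 FPKM or more in 3 or more libraries). Pax2 and Aldh1a2 did not, and their values are described without a test. The libraries came from wildtype mice aged 7 to 8 weeks that carried the mTmG reporter and a Cre directed to podocytes. The reporter turns green where Cre has acted. Total RNA was taken from GFP-positive podocytes 14 days after ADR injection (ADR_D14, 3 libraries), 9 days after it (ADR_D9, 3 libraries), or from mice given PBS (3 libraries). ADR is not spelled out in the labels. All groups carried the reporter and the Cre. Whether the replicates of a group were separate mice is not stated in the labels. Transcripts of the Y chromosome were present in ADR_D14 replicate 2, ADR_D9 replicate 1 and the 3 PBS libraries and near 0 in the other 4, so neither ADR group came from 1 mouse, while the spread among PBS libraries may be technical. The 4 libraries near 0 all came from ADR mice, among them ADR_D14 replicate 1 and ADR_D9 replicate 3. In comparisons with PBS, ADR and the sex of the mice therefore cannot be fully told apart.

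Parietal epithelial cells line the inner wall of Bowman's capsule, opposite the podocytes, and share a developmental origin with them. In glomerular injury they can become activated, gain CD44, migrate and deposit matrix, and some are regarded as a reserve for podocytes. Several of their markers are also expressed in tubule cells, leukocytes or endothelium, so a level in bulk RNA does not name its cell of origin. Fewer cells of a type and less RNA per cell likewise cannot be told apart in such RNA.

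Values are FPKM, fragment counts scaled by transcript length and by library size, as the authors deposited them. Column totals ran from 572787 to 723288 FPKM and 8629 to 10474 genes reached 1 FPKM per library. Absolute depth is unknown. Relative to PBS replicate 2, depth read from the steps of low values was 0.239 to 0.569 in ADR_D14, 0.786 to 0.889 in ADR_D9 and up to 1.085 with PBS. Nphs1 (nephrin), which defines podocytes, was between 30.2 and 99.2 FPKM over the 9 libraries, and 16 to 18 of 18 podocyte markers reached 1 FPKM in each. ADR_D14 replicate 1 had the fewest, with Lmx1b listed at 0, and a sum of 3235 FPKM against 9858 FPKM or more elsewhere. Of 18 podocyte markers 0 rose and 5 fell in ADR_D14 against PBS, and 0 rose and 10 fell in ADR_D14 against ADR_D9. ADR_D14 replicate 1 and ADR_D9 replicate 3 stood apart by markers of other kidney cells, and results that rest on them are given with and without them. Emcn, an endothelial sialomucin, was at 244 FPKM in ADR_D14 replicate 1 and 424 FPKM in ADR_D9 replicate 3, against at most 4.44 FPKM in the other 7 libraries. Aqp2, the water channel of the collecting duct, was at 9099 and 226 FPKM in those 2 libraries and at most 15.5 FPKM elsewhere.

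The 9 genes did not share 1 pattern. Cd24a, Cd9 and Spp1 were far above PBS in both libraries with markers of other kidney cells, and Pax8 and Cd44 in ADR_D14 replicate 1. Cldn1 lay below PBS in all ADR_D9 libraries. Aldh1a1 did so too and had its highest level of all libraries in ADR_D14 replicate 3. Pax2 was near 0 everywhere. No member passed the test in any of the 3 comparisons with all libraries in the fit (limma on log2(FPKM + 1), Benjamini-Hochberg adjusted p under 0.05 over 9788 genes). On that scale the change of a low gene comes out too small. From each log2 change the median over all tested genes was subtracted (−0.15 for ADR_D14 against PBS, 0.04 for ADR_D9 against PBS and −0.22 for ADR_D14 against ADR_D9), while the p-values printed test the change before that subtraction. Tested on the subtracted change, an alternative added after the data were seen, 0 members passed as well.

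**Figure D1:**
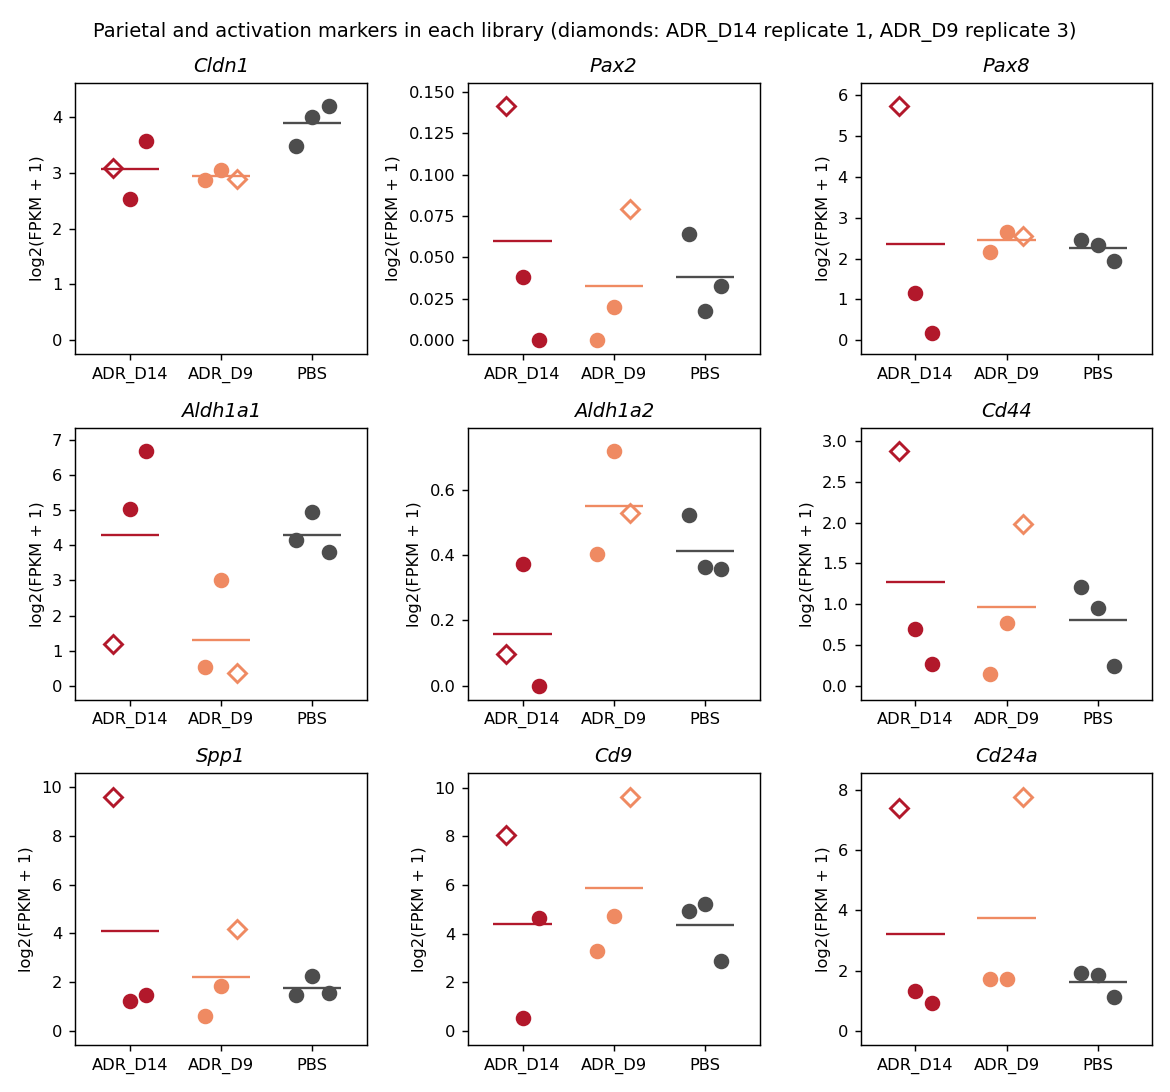
Level of each of the 9 genes, as log2(FPKM + 1), in the 3 ADR_D14, 3 ADR_D9 and 3 PBS libraries. Points are libraries, bars are group means on that scale, and diamonds are ADR_D14 replicate 1 and ADR_D9 replicate 3. Cd24a and Cd9 have both diamonds at the top, while the 3 ADR_D9 points of Cldn1 (6.3 to 7.27 FPKM) sit under the 3 PBS points (10.2 to 17.3 FPKM). The vertical scale differs between panels.

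In the comparison of ADR_D14 with PBS, 0 of the 7 members tested passed, against 17.1% of all genes tested (6.32% higher and 10.7% lower). The 619 higher and 1051 lower genes became 818 and 773 with median-of-ratios scaling, 414 and 1679 with a common total and 465 and 657 by quantile normalization. Tested on the subtracted change, 830 were higher and 766 lower. Only Cldn1 of the members had an unadjusted p under 0.05, as 34.2% of all genes did, with a change of −0.83 before the subtraction. On the subtracted change its unadjusted p was 0.062 by limma. Between ADR_D9 and PBS 0 passed, against 0.0% of all genes (smallest adjusted p = 0.9999 by limma), and 2 members, Cldn1 and Aldh1a1, had an unadjusted p under 0.05, as did 304 of the 9788 genes (3.11%). In the comparison of ADR_D14 with ADR_D9, 0 of 7 passed, against 15.7% of all genes (5.71% higher and 9.98% lower), and Aldh1a1 alone had an unadjusted p under 0.05, as 34.4% of all genes did. There the 559 higher and 977 lower genes became 805 and 624, 393 and 1832, and 521 and 472 under those scalings, in that order, and 847 and 549 on the subtracted change. No member tested had ADR_D14 libraries that all lay above or all below the PBS libraries, while 15.6% of all genes lay above and 23.8% below.

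Stretches before annotated transcription starts are shown for 4 members whose levels differed most in kind, 2 from genes with their own pattern (Cldn1 and Aldh1a1) and 2 from genes that were high in the same pair of libraries (Cd9 and Spp1). They are 250 bases each, written 5′ to 3′ from RefSeq on build GRCm38.p6, a later build than the mm9 named for the deposited values. Capitals mark a GC box (GGGCGG) or a TATA box (TATAAA), searched on both strands.
Cldn1, chr16:26371840-26372089, minus strand: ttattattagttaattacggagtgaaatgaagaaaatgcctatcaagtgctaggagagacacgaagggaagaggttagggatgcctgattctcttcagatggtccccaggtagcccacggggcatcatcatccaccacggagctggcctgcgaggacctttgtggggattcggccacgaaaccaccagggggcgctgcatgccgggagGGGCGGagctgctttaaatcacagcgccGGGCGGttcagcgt
Aldh1a1, chr19:20601718-20601967, plus strand: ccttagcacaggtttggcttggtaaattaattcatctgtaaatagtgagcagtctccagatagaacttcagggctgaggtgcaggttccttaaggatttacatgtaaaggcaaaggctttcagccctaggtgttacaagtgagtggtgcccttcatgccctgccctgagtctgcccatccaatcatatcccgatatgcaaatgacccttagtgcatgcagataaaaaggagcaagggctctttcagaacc
Cd9, chr6:125494761-125495010, minus strand: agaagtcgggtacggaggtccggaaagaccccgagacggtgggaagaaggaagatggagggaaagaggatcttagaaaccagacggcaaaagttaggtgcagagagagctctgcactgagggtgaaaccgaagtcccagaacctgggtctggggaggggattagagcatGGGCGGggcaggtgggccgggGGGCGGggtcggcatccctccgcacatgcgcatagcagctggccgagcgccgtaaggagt
Spp1, chr5:104434861-104435110, plus strand: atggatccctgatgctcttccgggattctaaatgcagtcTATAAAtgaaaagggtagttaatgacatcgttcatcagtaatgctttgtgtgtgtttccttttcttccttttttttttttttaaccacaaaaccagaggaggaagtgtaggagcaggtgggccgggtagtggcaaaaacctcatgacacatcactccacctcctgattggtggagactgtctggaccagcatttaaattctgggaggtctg
Cldn1 and Cd9 carry 2 GC boxes each in these windows. Spp1 has the letters TATAAA, at the end of its window far from the start, and Aldh1a1 has neither match. Only these exact letters were searched, so the ataaaaa close to the Aldh1a1 start was not counted. Over 8 members with an entry there were 12 such windows, of which 5 held a GC box and 1 a TATA box, compared with 32.7% and 12.4% of all 32851 windows of that length. The site of the EGR and WT1 zinc fingers, searched as GCGTGGGNG on both strands, was in 0 of the 12 and in 1.65% of all windows. No matches of different motifs overlapped. A match here is a description of letters, not a binding site.

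Pax2 and Pax8 are paired-box transcription factors of the nephric lineage that are kept on in parietal cells and tubules and are low in mature podocytes. Pax2 was listed at 0.103, 0.0268 and 0 FPKM in ADR_D14, at 0, 0.0139 and 0.0565 FPKM in ADR_D9 and at 0.0454, 0.0123 and 0.0228 FPKM with PBS. The groups overlapped, and ADR_D14 replicate 1 was highest. Scaled by relative depth, these values were 0, 1, 2 or 4 times the smallest of them, the steps that single reads would give, so no difference between groups was detectable for Pax2 at this depth.

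Pax8 was at 52.4, 1.24 and 0.132 FPKM in ADR_D14, at 3.51, 5.26 and 4.84 FPKM in ADR_D9 and at 4.53, 4.06 and 2.85 FPKM with PBS. ADR_D14 replicate 1 was 11.6 times the highest PBS library, while ADR_D14 replicates 2 and 3 lay below every other library. The ADR_D9 and PBS libraries overlapped. With all libraries the log2 change of ADR_D14 against PBS was 0.26 ± 1.19 (SE, adjusted p = 0.955 by limma). Without ADR_D14 replicate 1 and ADR_D9 replicate 3 it was −1.41 ± 0.35 and passed (adjusted p = 0.0233 by limma), as did 14% of all genes in that direction and 8.11% in the other, and against ADR_D9 it was −1.55 ± 0.38 (adjusted p = 0.0344 by limma), where 8.46% of all genes passed as lower. Those values rest on the 2 ADR_D14 libraries left in the fit, whose relative depths were 0.460 and 0.569. The pair was picked by marker levels in these same data, tubule markers among them. It includes the library with the highest Pax8.

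Of 19 other nephric lineage factors, such as Lhx1, Gata3 and Six2, 2 passed the filter, Eya1 and Paxip1, and neither passed the test in any comparison. Eya1, a transcriptional cofactor of early kidney development, had a log2 change of −0.64 ± 0.27 in ADR_D14 against PBS (SE, adjusted p = 0.0765 by limma).

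Cldn1 encodes claudin-1, the tight junction protein by which parietal cells are often recognised. It was at 7.47, 4.75 and 10.9 FPKM in ADR_D14, at 6.3, 7.27 and 6.38 FPKM in ADR_D9 and at 10.2, 15 and 17.3 FPKM with PBS. All ADR_D9 libraries lay below all PBS libraries, and ADR_D14 overlapped PBS through its replicate 3. Group means were 7.71 ± 3.09, 6.65 ± 0.538 and 14.1 ± 3.58 FPKM for ADR_D14, ADR_D9 and PBS (SD, n = 3 each). The order of means was PBS, ADR_D14, ADR_D9, and neighbouring groups in that order overlapped.

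The log2 change of Cldn1 was −0.99 ± 0.32 in ADR_D9 against PBS (SE, unadjusted p = 0.0156 and adjusted p = 0.9999 by limma). It was −0.68 ± 0.32 in ADR_D14 against PBS (adjusted p = 0.105 by limma, and 0.173 for the subtracted change) and 0.34 ± 0.32 in ADR_D14 against ADR_D9 (adjusted p = 0.811 by limma, and 0.497 for the subtracted change). Non-overlap in the direction seen on day 9 was shared by 6.63% of all genes tested. Cldn1 varied least over the libraries among the 7 members tested. Without the pair of libraries with markers of other kidney cells it was at −0.67 in ADR_D14 and −0.95 in ADR_D9 against PBS. The ADR_D14 value passed without ADR_D14 replicate 3 (−0.94, adjusted p = 0.0461 by limma). Over all alternatives the adjusted p of that change lay between 0.0461 and 0.277. The markers of other kidney cells that set the pair apart were not accompanied by higher Cldn1, which was at 7.47 FPKM in ADR_D14 replicate 1 and 6.38 FPKM in ADR_D9 replicate 3, inside the range of the other ADR libraries.

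Aldh1a1 and Aldh1a2 encode retinaldehyde dehydrogenases, which make retinoic acid, and both have been used to mark parietal or progenitor-like cells. Aldh1a1 was at 1.27, 32.2 and 102 FPKM in ADR_D14, at 0.436, 7.0 and 0.284 FPKM in ADR_D9 and at 16.9, 29.7 and 13.0 FPKM with PBS. All ADR_D9 libraries lay below all PBS libraries, as they did for 6.63% of all genes tested. The ADR_D14 libraries spanned the range from below PBS to above it. The 3 ADR_D9 libraries ranked above 3.2%, 47.0% and 0.9% of the genes tested, and the PBS libraries above 60.6% to 75.2% of them.

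The log2 change of Aldh1a1 was −3.04 ± 1.28 in ADR_D9 against PBS (SE, unadjusted p = 0.0446 and adjusted p = 0.9999 by limma), 0.15 ± 1.28 in ADR_D14 against PBS (adjusted p = 0.997 by limma) and 3.23 ± 1.28 in ADR_D14 against ADR_D9 (adjusted p = 0.135 by limma). Without the pair of libraries the last of these was 4.29 ± 0.87 and passed (adjusted p = 0.0326 by limma), as 4.69% of all genes did as higher. It then compares 32.2 and 102 FPKM on day 14 with 0.436 and 7.0 FPKM on day 9. It also passed without ADR_D14 replicate 1 alone (4.8, adjusted p = 0.0148 by limma). Over all alternatives the adjusted p of that change lay between 0.0148 and 0.313. Both libraries with markers of other kidney cells were low in Aldh1a1, as was ADR_D9 replicate 1, which had 547 FPKM in summed red cell markers. Aldh1a7, a near-identical paralog, was between 0 and 1.32 FPKM, and how reads shared with it were counted is not given in the sources used here.

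Aldh1a2 was far lower, at 0.0706, 0.294 and 0 FPKM in ADR_D14, at 0.322, 0.646 and 0.445 FPKM in ADR_D9 and at 0.436, 0.287 and 0.281 FPKM with PBS. All ADR_D14 libraries lay below all ADR_D9 libraries, and they overlapped PBS. A non-overlap of that direction was found for 24.6% of the genes tested, and Aldh1a2 itself was below the filter. With no filter on low values its log2 change was −0.37 in ADR_D14 against ADR_D9 (adjusted p = 0.114 by limma).

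A list of 26 other genes covered retinoic acid synthesis, transport, binding and breakdown, coregulators of its receptors, and genes named for their response to it. Of these 17 were tested. In ADR_D14 against PBS 1 rose and 0 fell, against 6.32% and 10.7% of all genes. In the other comparisons 0 passed. Leaving out the pair of libraries, 1 rose and 1 fell in ADR_D14 against PBS. With all libraries the median log2 changes of the 17 were 0.05 for ADR_D14 against PBS, 0.10 for ADR_D9 against PBS and −0.27 for ADR_D14 against ADR_D9. The gene that rose was Ncor1, a corepressor recruited by unliganded retinoic acid receptors, at 19.3, 18.1 and 21.0 FPKM in ADR_D14 against 8.46, 5.45 and 1.64 FPKM with PBS (log2 change 2.05 ± 0.43 SE, adjusted p = 0.0231 by limma). All ADR_D14 libraries lay above all PBS libraries, as they did for 15.6% of all genes tested. It no longer passed without PBS replicate 2 or PBS replicate 3 (highest adjusted p = 0.0858 by limma), with log2 changes from 1.56 to 2.44 over the fits without 1 library, and with a term for Y-linked transcripts the change was 2.13 while 0 genes of the table passed. Rbp4, the plasma retinol carrier, was listed at 0, 0.417 and 0 FPKM in ADR_D14 against 0.619, 7.14 and 7.4 FPKM with PBS and did not pass (log2 change −1.95 ± 0.65 SE, adjusted p = 0.0569 by limma).

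Cd24a and Cd9 encode cell surface proteins of activated or progenitor-like parietal cells. CD24 is a small glycosylphosphatidylinositol-anchored sialoglycoprotein also found on tubule cells and leukocytes, and CD9 is a tetraspanin that clusters integrins and growth factor receptors on many cell types. Cd24a was at 167, 1.5 and 0.911 FPKM in ADR_D14, at 2.31, 2.28 and 218 FPKM in ADR_D9 and at 2.79, 2.61 and 1.18 FPKM with PBS. In each ADR group 1 library was high, 59.8 and 78.3 times the highest PBS library in ADR_D14 replicate 1 and ADR_D9 replicate 3, and the other 7 libraries lay between 0.911 and 2.79 FPKM. These 2 libraries held 96.6% of the gene's summed FPKM.

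The log2 change of Cd24a was 1.73 ± 1.99 in ADR_D14 against PBS and 2.07 ± 1.99 in ADR_D9 against PBS (SE, adjusted p = 0.601 and 0.9999 by limma). Without the 2 libraries the values were −0.34 ± 0.29 and 0.07 ± 0.29 (adjusted p = 0.245 and 0.966 by limma). In each ADR group 1 library set the mean of Cd24a.

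Cd9 was at 263, 0.459 and 23.9 FPKM in ADR_D14, at 8.7, 25.4 and 792 FPKM in ADR_D9 and at 29.3, 36.6 and 6.25 FPKM with PBS. ADR_D14 replicate 1 and ADR_D9 replicate 3 were 7.19 and 21.6 times the highest PBS library. ADR_D14 replicate 2 was the lowest library. Unlike Cd24a, Cd9 also varied among the other 7 libraries, which ran from 0.459 to 36.6 FPKM with no separation of groups. Its log2 changes were 0.22 ± 2.03 in ADR_D14 against PBS and 1.5 ± 2.03 in ADR_D9 against PBS (SE, adjusted p = 0.983 and 0.9999 by limma), and −1.58 ± 1.24 and −0.35 ± 1.24 without the pair of libraries (adjusted p = 0.333 and 0.972 by limma).

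Of 15 partners of CD9 and CD24, such as other tetraspanins, laminin-binding integrins and the sheddases of the ADAM family, 10 were tested. In ADR_D14 against PBS 0 rose and 1 fell, and in ADR_D14 against ADR_D9 1 rose and 2 fell. Of all genes 6.32% rose and 10.7% fell in the first comparison and 5.71% and 9.98% in the second. Without the pair of libraries with markers of other kidney cells 0 rose and 3 fell in both. Itga3, the integrin chain that binds CD9 and CD151, was at 47.8, 68.3 and 28.0 FPKM in ADR_D14 against 144, 174 and 208 FPKM with PBS (log2 change −1.77 ± 0.34 SE, adjusted p = 0.0125 by limma), a call that ended without PBS replicate 2 or PBS replicate 3 (highest adjusted p = 0.07 by limma) and with the term for Y-linked transcripts (−1.22). Against ADR_D9 it fell by 1.79 ± 0.34 (SE, adjusted p = 0.0118 by limma). All ADR_D14 libraries lay below every ADR_D9 and PBS library. Of all genes tested 24.6% lay so below ADR_D9 and 23.8% below PBS.

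Cd63, a tetraspanin of late endosomes and exosomes, was at 124, 70.9 and 82.2 FPKM in ADR_D14 against 14.2, 27.0 and 6.37 FPKM in ADR_D9 and 51.7, 39.9 and 14.7 FPKM with PBS. All ADR_D14 libraries lay above every ADR_D9 and PBS library. Of all genes tested 13.2% lay so above ADR_D9 and 15.6% above PBS. Against PBS Cd63 did not pass (log2 change 1.63 ± 0.57 SE, adjusted p = 0.104 by limma). It rose between ADR_D9 and ADR_D14 (log2 change 2.85 ± 0.57 SE, adjusted p = 0.0209 by limma). Without the pair of libraries the change was 2.10 and did not pass (adjusted p = 0.0695 by limma), nor did it without ADR_D9 replicate 1 or ADR_D9 replicate 3 alone. Igsf8, an immunoglobulin protein that binds CD9 and CD81, fell by 0.97 ± 0.32 in ADR_D14 against ADR_D9 (SE, adjusted p = 0.0414 by limma), a call kept in 1 of the 9 fits that left out 1 library, the one without ADR_D14 replicate 1, and lost on the subtracted change (adjusted p = 0.0789 by limma). The tetraspanin genes Cd9 and Cd63 had different profiles over the same libraries, with Cd63 high in all of ADR_D14 and Cd9 high in 1 library of each ADR group.

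Cd44 and Spp1 are genes of activation. CD44 is the hyaluronan receptor that appears on activated parietal cells and is abundant on leukocytes. Osteopontin, the product of Spp1, is a secreted ligand of CD44 and of integrins and is made by injured tubules, the loop of Henle and macrophages. Cd44 was at 6.33, 0.611 and 0.204 FPKM in ADR_D14, at 0.105, 0.699 and 2.95 FPKM in ADR_D9 and at 1.32, 0.927 and 0.184 FPKM with PBS. It passed the filter through 3 libraries, ADR_D14 replicate 1, ADR_D9 replicate 3 and PBS replicate 1, and all groups overlapped. Its log2 change was 0.62 ± 0.71 in ADR_D14 against PBS and 0.13 ± 0.71 in ADR_D9 against PBS (SE, adjusted p = 0.662 and 0.9999 by limma), and −0.16 and −0.36 without the pair of libraries.

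Spp1 had the widest span of the 9 genes on day 14, at 782, 1.31 and 1.81 FPKM in ADR_D14, at 0.51, 2.54 and 17.1 FPKM in ADR_D9 and at 1.79, 3.78 and 1.9 FPKM with PBS. ADR_D14 replicate 1 was 207 times the highest PBS library and ADR_D9 replicate 3 was 4.52 times it, and the other 7 libraries lay between 0.51 and 3.78 FPKM. The log2 change was 2.49 ± 2.02 in ADR_D14 against PBS (SE, adjusted p = 0.441 by limma) and −0.24 ± 0.41 without the pair of libraries (adjusted p = 0.492 by limma). On day 14 the single library ADR_D14 replicate 1 held a Spp1 level above those of PBS.

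Of 20 partners of CD44 and osteopontin, among them hyaluronan synthases, integrin receptors and the ezrin-radixin-moesin linkers, 13 were tested and 0 passed in any of the 3 comparisons with all libraries. In ADR_D14 against PBS 1 of the 13 passed as higher without the pair of libraries, as 8.11% of all genes did. It was Rdx, which encodes the membrane linker radixin. With all libraries its log2 change was 0.82 ± 0.35 and did not pass (SE, adjusted p = 0.202 by limma). Itgb5, an integrin chain that pairs with the alpha v chain as an osteopontin receptor, was at 2125, 979 and 829 FPKM in ADR_D9 against 772, 361 and 42.9 FPKM with PBS. All ADR_D9 libraries lay above all PBS libraries (log2 change 2.34 ± 0.91 SE, unadjusted p = 0.0292 and adjusted p = 0.9999 by limma), as they did for 6.77% of all genes tested. Cxcl12, a chemokine that podocytes secrete, was at 9.5, 13.5 and 1.84 FPKM in ADR_D14 against 17.4, 19.4 and 26.5 FPKM with PBS, without overlap, as for 23.8% of all genes in that direction, and did not pass (log2 change −1.38 ± 0.56 SE, adjusted p = 0.0906 by limma).

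**Figure D2:**
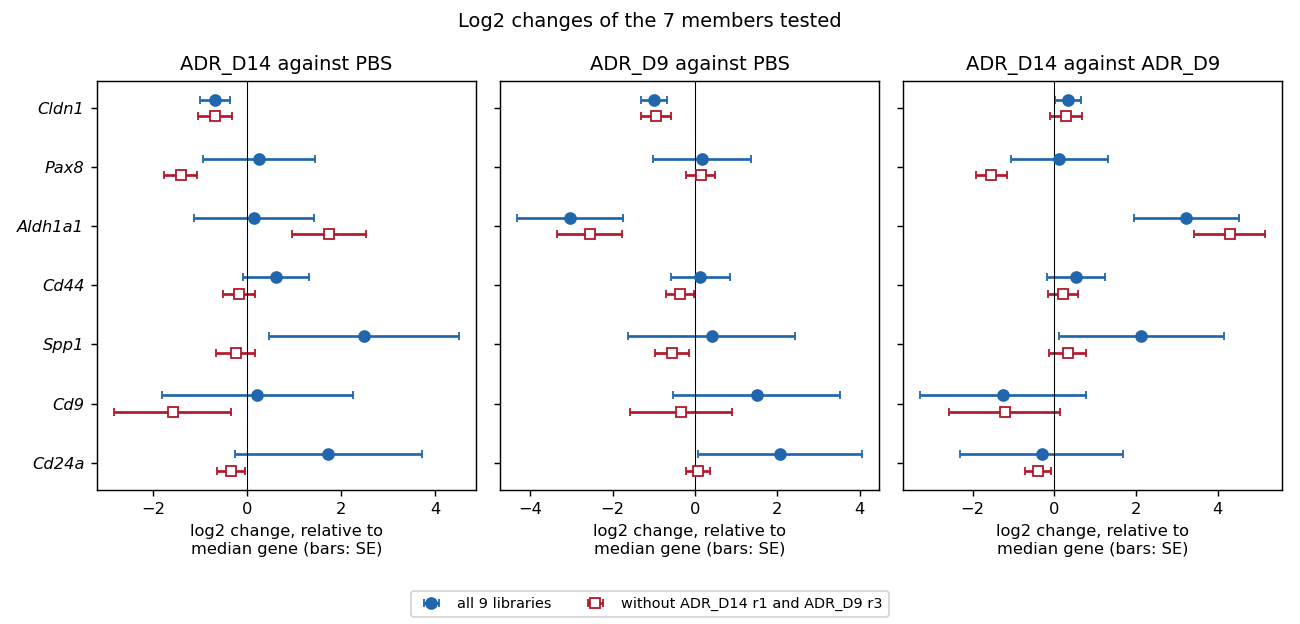
Log2 changes of the 7 members tested, relative to the median gene, in ADR_D14 against PBS, ADR_D9 against PBS and ADR_D14 against ADR_D9. Filled circles use all 9 libraries, open squares leave out ADR_D14 replicate 1 and ADR_D9 replicate 3, and bars are standard errors. In ADR_D14 against PBS, Spp1 stands at 2.49 with all libraries and at −0.24 without the 2, and Pax8 at 0.26 and −1.41, while Cldn1 stands at −0.68 and −0.67.

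Cd24a, Cd9, Spp1, Pax8 and Cd44 were highest in ADR_D14 replicate 1 or ADR_D9 replicate 3, where markers of other kidney cells were high, and these 2 libraries held 69.6% to 98.3% of each gene's summed FPKM. They held 0.8% for Aldh1a1, 16.2% for Cldn1 and 18.5% for Aldh1a2. For Pax2, near 0 in every library, they held 56.8%. At over 4 times the highest PBS library and at least 1 FPKM stood 5 of the 9 members in ADR_D14 replicate 1 (Cd44, Pax8, Cd24a, Cd9 and Spp1), where 8.55% of all genes tested did so, and 3 of 9 in ADR_D9 replicate 3 (Cd24a, Cd9 and Spp1), where 3.79% did so. In each of the other 4 ADR libraries 0 of 9 did, against 0.143% to 0.807% of all genes.

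Of 15 endothelial markers, 15 stood over that bound in both ADR_D14 replicate 1 and ADR_D9 replicate 3, with summed levels of 895 and 3432 FPKM. The sums ran from 1.28 to 895 FPKM in ADR_D14, from 8.29 to 3432 FPKM in ADR_D9 and from 4.24 to 13.7 FPKM with PBS. Of 15 markers of the loop, distal tubule and collecting duct, 14 in ADR_D14 replicate 1 and 11 in ADR_D9 replicate 3 stood over it, at 13018 and 756 FPKM in sum, within ranges of 24.1 to 13018 FPKM in ADR_D14, 95.8 to 756 FPKM in ADR_D9 and 82.8 to 158 FPKM with PBS. Of 15 proximal tubule markers, 13 and 3 stood over it, at 5091 and 172 FPKM, within 16.5 to 5091 FPKM in ADR_D14, 126 to 172 FPKM in ADR_D9 and 48.2 to 71.4 FPKM with PBS. Kap and Slc22a12 were listed at 0 in ADR_D9 replicate 3 and above 0 in ADR_D14 replicate 1.

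Leukocyte markers, which bear on Cd44 and Cd24a, followed the same libraries. Of 15 found, 9 in ADR_D14 replicate 1 and 8 in ADR_D9 replicate 3 stood over the bound, and the sums ran from 12.7 to 1092 FPKM in ADR_D14, from 7.96 to 728 FPKM in ADR_D9 and from 5.75 to 77.1 FPKM with PBS. Ptprc, the pan-leukocyte antigen CD45, was at 7.05 and 7.88 FPKM in those 2 libraries and at most 0.0912 FPKM elsewhere. Mesangial and stromal markers stood over it in 3 and 5 of 15, with sums of 31.5 to 89.9 FPKM in ADR_D14, 46.6 to 270 FPKM in ADR_D9 and 53.6 to 135 FPKM with PBS. Red cell markers did not follow the pair alone. Of 7 found, 2 stood over the bound in ADR_D14 replicate 1, 3 in ADR_D9 replicate 3, 2 in ADR_D9 replicate 1, which had the highest sum, and 1 in ADR_D14 replicate 2, with sums of 0.708 to 64.5 FPKM in ADR_D14, 0.35 to 547 FPKM in ADR_D9 and 0.563 to 5.45 FPKM with PBS.

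Between the 2 libraries the members differed in which was higher. Spp1, Pax8 and Cd44 were higher in ADR_D14 replicate 1 (782, 52.4 and 6.33 FPKM) than in ADR_D9 replicate 3 (17.1, 4.84 and 2.95 FPKM), as were the summed tubule and leukocyte markers. Cd9 and Cd24a were lower in ADR_D14 replicate 1 (263 and 167 FPKM) than in ADR_D9 replicate 3 (792 and 218 FPKM). So were the summed endothelial, mesangial and stromal, red cell and podocyte markers, and Ptprc among the leukocyte markers (7.05 against 7.88 FPKM). With only 2 libraries any gene goes with some of these lists, so the order names no cell of origin. The part of these other cells in the members' levels was not tested. The labels describe all the RNA as that of sorted GFP-positive podocytes.

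**Figure D3:**
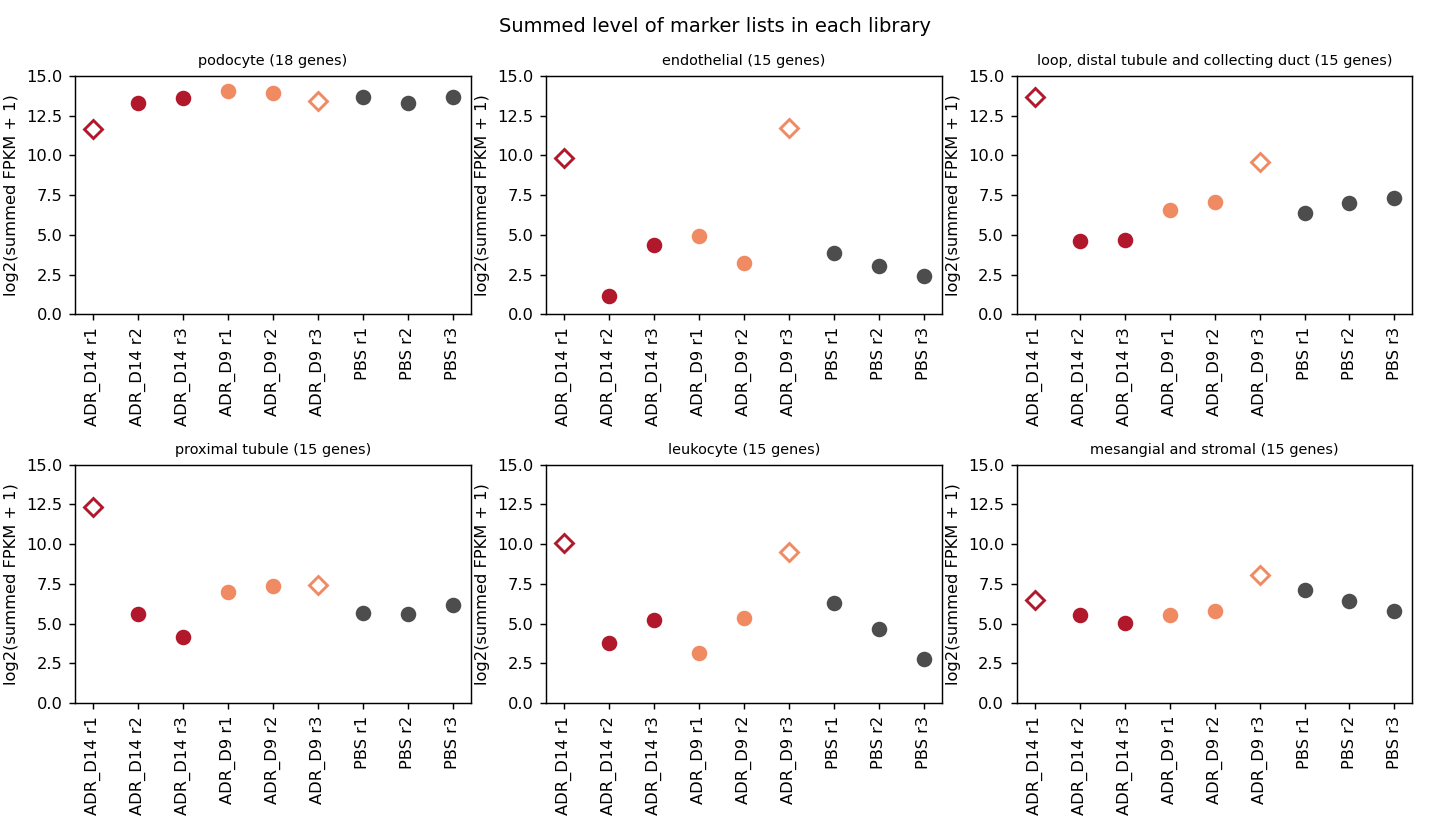
Summed level of 6 marker lists, as log2(summed FPKM + 1), in each ADR_D14, ADR_D9 and PBS library (r is the replicate, diamonds are ADR_D14 replicate 1 and ADR_D9 replicate 3). The podocyte list is lowest in ADR_D14 replicate 1 (3235 FPKM). The endothelial list is highest in ADR_D9 replicate 3 (3432 FPKM) and both tubule lists in ADR_D14 replicate 1 (13018 and 5091 FPKM).

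A further 20 parietal markers, such as the keratins, Scin, Lad1, Dkk3 and Vcam1, were in the table and 10 were tested. None of the 10 passed in any of the 3 comparisons, with median log2 changes of −0.27 for ADR_D14 against PBS, −0.34 for ADR_D9 against PBS and 0.11 for ADR_D14 against ADR_D9. Without the pair of libraries 0 of 10 passed as well. In both ADR_D14 replicate 1 and ADR_D9 replicate 3, 8 of the 20 stood over 4 times the highest PBS library and at least 1 FPKM. Of all genes tested 8.55% and 3.79% did so in those libraries, in that order. In each other ADR library 0 or 1 of the 20 did, against 0.143% to 0.807% of all genes. Summed levels ran from 943 to 1999 FPKM in ADR_D14, from 1169 to 1401 FPKM in ADR_D9 and from 1825 to 3764 FPKM with PBS. With PBS most of each sum was Ctgf and Ezr, at 3069 and 534 of 3764 FPKM in PBS replicate 2. In ADR_D14 replicate 1 they were at 183 and 290 of 1212 FPKM. The sums therefore do not describe the 20 genes as a set.

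Ctgf, a matricellular growth factor, was at 891, 852 and 507 FPKM in ADR_D9 against 1197, 3069 and 1838 FPKM with PBS, all ADR_D9 libraries below all PBS libraries, as for 6.63% of all genes tested (log2 change −1.41 ± 0.71 SE, unadjusted p = 0.0864 and adjusted p = 0.9999 by limma). Ezr, which encodes the membrane linker ezrin, was at 290, 331 and 118 FPKM in ADR_D14 against 505, 534 and 408 FPKM with PBS, again without overlap (log2 change −0.94 ± 0.40 SE, adjusted p = 0.0899 by limma, and 0.135 for the subtracted change). In that comparison 23.8% of all genes tested lay wholly below PBS. Ncam1, a neural adhesion molecule found on some parietal cells, averaged 6.16 ± 2.80 FPKM in ADR_D14 and 12.3 ± 4.38 FPKM with PBS (SD, n = 3 each) and did not pass (log2 change −0.75 ± 0.36 SE, adjusted p = 0.118 by limma).

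For each member tested, the genes with the most similar profile were found by the root mean square difference over the 9 libraries of log2(FPKM + 1), each gene centred on its own mean. This is a description of likeness in 9 libraries with no test. The 3 nearest to Aldh1a1 were Eda2r, a receptor of the tumour necrosis factor family (difference 0.44), Cntf, a neurotrophic cytokine (0.60), and Ankrd2, an ankyrin repeat protein (0.70), against a median of 2.20 over all genes. Eda2r was at 1.11, 24.4 and 111 FPKM in ADR_D14, at 0, 6.29 and 1.02 FPKM in ADR_D9 and at 22.6, 24.4 and 23.4 FPKM with PBS, so the same libraries were high and low as for Aldh1a1.

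Nearest to Cd24a were Ly6c1, a surface antigen of mouse endothelium and myeloid cells (0.30), Cyp4b1 (0.43) and Slfn2 (0.44). Ly6c1 was at 155, 0.821 and 1.14 FPKM in ADR_D14 and at 2.37, 1.04 and 268 FPKM in ADR_D9, against 1.9, 2.51 and 1.12 FPKM with PBS. Nearest to Spp1 were Rnf186 (0.42), the epithelial mucin gene Muc1 (0.51) and Gipc2 (0.56), with Muc1 at 203 FPKM in ADR_D14 replicate 1 and 6.33 FPKM in ADR_D9 replicate 3. Nearest to Cd9 were Slco3a1 (1.01), Oas1a (1.1) and Tinagl1 (1.1), larger differences than for the other members. For Pax8 they were Ndrg1 (0.47) and Slc16a4 (0.47), for Cd44 Bag2 (0.23), Pde7a (0.26) and Gnaz (0.27), and for Cldn1 Gatad1 (0.16), Ptges3 (0.20) and Tmem19 (0.21), whose own spread over the libraries was small like that of Cldn1.

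**Figure D4:**
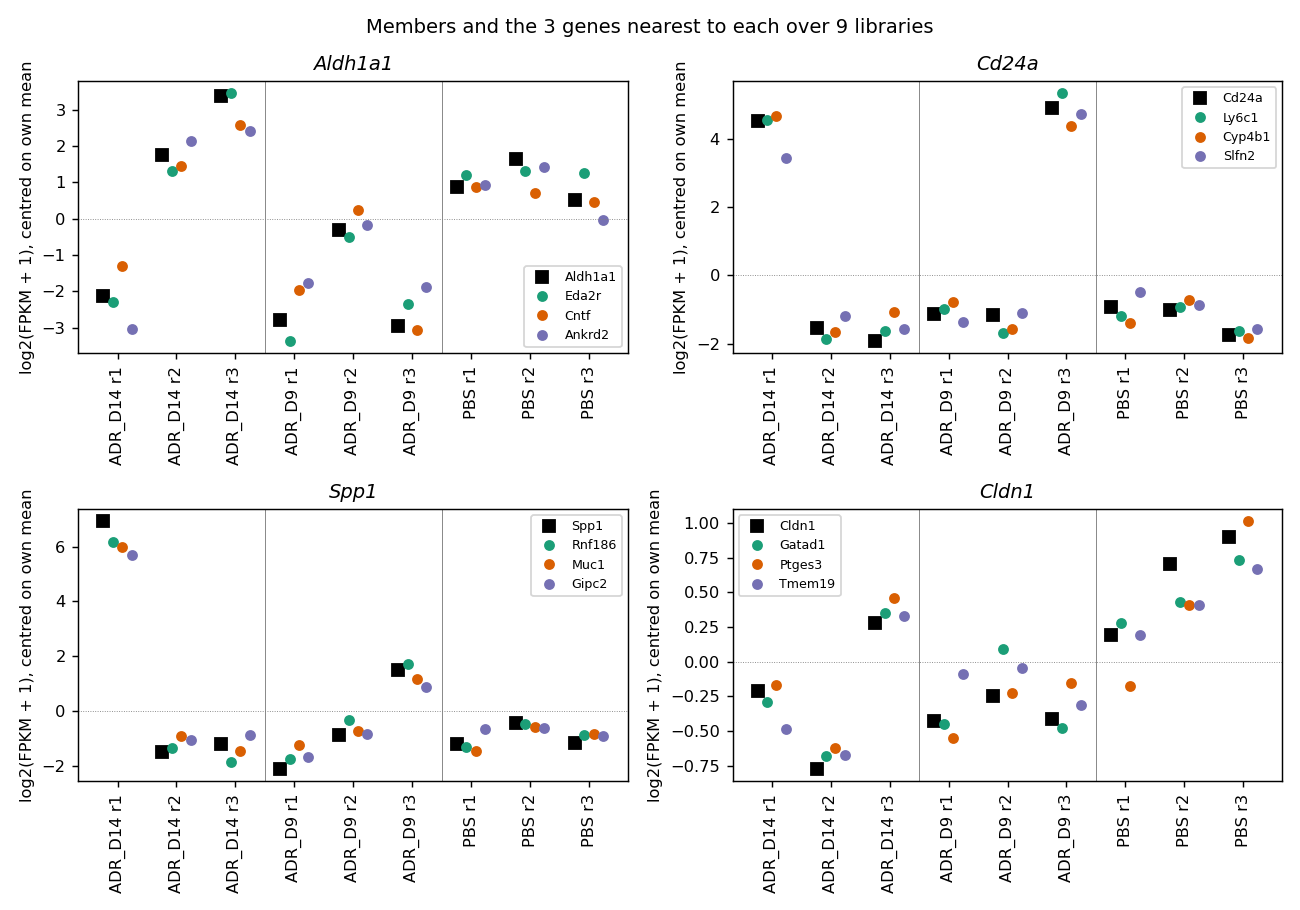
Aldh1a1, Cd24a, Spp1 and Cldn1 (black squares) with the 3 genes nearest to each (circles), as log2(FPKM + 1) centred on each gene's own mean, in the ADR_D14, ADR_D9 and PBS libraries. Aldh1a1 and Eda2r share their low libraries, ADR_D14 replicate 1 and ADR_D9 replicates 1 and 3, and Cd24a and Ly6c1 share ADR_D14 replicate 1 and ADR_D9 replicate 3 as high ones. The genes were chosen for this likeness, and the vertical scale differs between panels.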

How the data were processed

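Total RNA of GFP-positive podocytes was depleted of ribosomal RNA with a Ribo-Zero kit and sequenced from standard Illumina libraries, per the labels' protocols. The authors deposited FPKM values, 1 column per library, 3 libraries per group. Bowtie 0.12.7, Cufflinks and mm9 are named without roles in the submitters' processing notes; annotation and strand use are not given there. Columns headed control were matched to PBS libraries by replicate number. The table has 23813 rows and 23309 symbols; of 260 symbols on several rows only the row of highest mean entered. Genes reaching 1 FPKM in 3 or more libraries were tested with limma 3.58.1 in R 4.3.3, on log2(FPKM + 1) with a variance trend, all 9 libraries and group as the only term, two-sided, with Benjamini-Hochberg adjustment over 9788 genes. The fit was tested on simulated data. Relative depth was the most frequent ratio to PBS replicate 2 of values under 0.3 FPKM. No counting interval can be given from FPKM. All members are named, with the 3 nearest genes of each (1 of those of Pax8, an unnamed clone, is left out), and, from each pathway list, up to 4 genes that passed or otherwise those with the smallest p, trimmed for length. The members and lists were chosen with earlier results of these data known. The pair of libraries left out was picked by its marker levels in these same data. Alternatives were another pseudocount, filters, scalings, variance model, threshold and handling of repeated symbols, only the groups compared, a replicate block, a term for Y-linked transcripts, the pair of libraries with markers of other kidney cells left out, each library left out in turn and, added after seeing the data, a test of the change relative to the median gene. Printed p-values otherwise test the change itself. Same-numbered libraries were checked for shared deviations and are not taken as pairs. Some items are not reported here.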

Additional observations from a re-analysis of the deposited data

How the results depend on the processing

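Over 23 alternatives, Cldn1 in all 3 comparisons and Aldh1a1 in ADR_D9 against PBS and in ADR_D14 against ADR_D9 kept their direction, 5 of 21 member changes. The cause of the shifts below was not tested. Members that passed numbered 0 in each comparison. In ADR_D14 against PBS 1 passed with a common total (Cldn1), 1 without the pair of libraries with markers of other kidney cells (Pax8), and 0 to 1 without 1 library. In ADR_D14 against ADR_D9, 2 passed without the pair (Pax8 and Aldh1a1) and 0 to 2 without 1 library. Over all genes, ADR_D9 against PBS gave 2 with no filter, 1 with only the groups compared and 0 to 1 without 1 library. ADR_D14 against PBS gave 997 with no filter, 470 with only the groups compared, 2691 at an adjusted p under 0.10, 0 by limma once Y-linked transcripts entered as a term (2282 had an unadjusted p under 0.05) and 0 to 1885 without 1 library (0 without PBS replicate 2, with 2349 at an unadjusted p under 0.05 by limma, 150 without PBS replicate 3 and 1081 without ADR_D9 replicate 2), against 1670. ADR_D14 against ADR_D9 gave 881 with no filter, 993 after quantile normalization, 262 with only the groups compared, 2673 at an adjusted p under 0.10 and 381 to 2124 without 1 library (729 without PBS replicate 2, and 497, 625 and 381 without ADR_D9 replicates 1, 2 and 3), against 1536. With the replicate number as a block 1301 and 1200 genes passed and 0 members. Same-numbered libraries had correlations of their deviations from −0.265 to 0.431 over 9 pairs, so the number is not taken as a pairing. Pax2 stood at no more than 4 steps of its smallest value, and the ADR_D14 libraries had the lowest relative depth.

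Of 44 turned signs among the members' log2 changes, 22 came with 1 library left out, 9 without the pair of libraries, 9 with the term for Y-linked transcripts and 4 with another pseudocount or no filter. With the term ADR_D9 against PBS gave −0.03 for Cd24a, −0.62 for Cd44, −1.86 for Cd9, −0.53 for Pax8 and −1.83 for Spp1, and ADR_D14 against PBS gave −0.57 for Cd24a, −0.17 for Cd44, −3.49 for Cd9 and −0.48 for Pax8. Without the pair ADR_D9 against PBS gave −0.36 for Cd44, −0.35 for Cd9 and −0.56 for Spp1. ADR_D14 against PBS gave −0.34 for Cd24a, −0.16 for Cd44, −1.58 for Cd9, −1.41 for Pax8 and −0.24 for Spp1, and ADR_D14 against ADR_D9 gave −1.55 for Pax8. With a pseudocount of 0.1, Cd9 was at −0.1 and Pax8 at −0.38 in ADR_D14 against PBS and Pax8 at −0.55 against ADR_D9, where it was at −0.08 with no filter. Without 1 library the ranges in ADR_D9 against PBS were −0.36 to 0.56 for Cd44, −0.35 to 2.83 for Cd9, 0 to 0.33 for Pax8 and −0.56 to 1.23 for Spp1. In ADR_D14 against PBS they were −1.04 to 1.74 for Aldh1a1, −0.34 to 2.87 for Cd24a, −0.16 to 1.12 for Cd44, −1.58 to 2.14 for Cd9, −1.41 to 1.34 for Pax8 and −0.24 to 3.93 for Spp1. In ADR_D14 against ADR_D9 they were −2.39 to 1.66 for Cd24a, −0.26 to 1.04 for Cd44, −3.06 to 0.66 for Cd9, −1.56 to 1.21 for Pax8 and −0.63 to 3.55 for Spp1.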
